A study of Mus musculus with 8 samples.

Results

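Respiratory complex I was followed through the 46 genes of the mouse count table whose symbol begins with Nduf, out of 38293 genes in all. They fall into 38 genes named as subunits (Ndufa4 and its paralog Ndufa4l2 included throughout) and 8 assembly factors (the Ndufaf genes). Another 4 rows with such a symbol are annotated as processed pseudogenes and were left out; they held at most 49 counts in any library. All 46 members passed the filter on low counts that left 14567 genes for testing.

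The study compared heart ventricle, left and right mixed, from mice heterozygous for the deletion PKP2 c.1755delA (HET, 4 libraries, genotype label PKP2 c.1755A/WT) with wild-type mice (WT, 4 libraries, PKP2 WT/WT). All samples were taken at 8 weeks of age, and no other allele or treatment is named for either group. PKP2 encodes plakophilin-2 of the desmosome, the junction that holds heart muscle cells together. The name of the count table has delC in place of delA, and the series title was followed here. How the allele was made, the strain, and whether each library came from a separate animal are not given in the sources used here. The p-values therefore speak of the spread among these libraries, which may be technical.

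Complex I, NADH:ubiquinone oxidoreductase, takes electrons from NADH in the mitochondrial matrix, passes them along a chain of iron-sulfur clusters to ubiquinone, and pumps protons across the inner membrane. Its matrix arm holds the redox core, its membrane arm holds the proton pumps, and a set of supernumerary subunits surrounds both. The pump subunits of the core are encoded by mitochondrial DNA and all Nduf proteins by nuclear genes, while assembly factors help to build the complex and are not part of the finished enzyme. Heart muscle is rich in mitochondria and depends on this complex for most of its ATP.

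Promoter windows from 250 bases before to 50 bases after the gene start were found in the RefSeq table (GRCm38.p6) for 40 of the 46 members. Among those not matched were Ndufa2, Ndufa4l2, Ndufaf6, Ndufb9 and Ndufs1. Each window was searched on both strands for 4 motifs of factors known to act on nuclear genes of mitochondrial proteins. The windows below show a member of high expression, an assembly factor and a pair of core subunits, with the matched motif in capitals.
Ndufa4 (chr6:11907401-11907700, minus strand): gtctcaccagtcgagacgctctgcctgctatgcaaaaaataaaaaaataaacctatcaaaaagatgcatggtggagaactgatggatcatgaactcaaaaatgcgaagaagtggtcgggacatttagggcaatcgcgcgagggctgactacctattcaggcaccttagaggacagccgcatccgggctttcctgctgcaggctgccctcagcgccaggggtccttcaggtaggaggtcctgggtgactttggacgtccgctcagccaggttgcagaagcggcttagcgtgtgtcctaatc
Ndufaf4 (chr4:24897833-24898132, plus strand): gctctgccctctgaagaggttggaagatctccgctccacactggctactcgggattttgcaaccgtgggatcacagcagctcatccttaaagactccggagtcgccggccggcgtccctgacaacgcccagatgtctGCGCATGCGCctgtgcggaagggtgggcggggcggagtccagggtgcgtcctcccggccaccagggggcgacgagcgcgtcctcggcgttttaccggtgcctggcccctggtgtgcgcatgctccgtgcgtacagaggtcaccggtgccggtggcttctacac
Ndufs7 (chr10:80249199-80249498, plus strand): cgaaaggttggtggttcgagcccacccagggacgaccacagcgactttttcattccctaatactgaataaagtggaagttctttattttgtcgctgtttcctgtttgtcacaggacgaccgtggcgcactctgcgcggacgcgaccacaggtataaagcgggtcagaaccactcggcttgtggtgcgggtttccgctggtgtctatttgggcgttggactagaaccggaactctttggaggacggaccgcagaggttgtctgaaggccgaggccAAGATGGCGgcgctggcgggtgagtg
Ndufs8 (chr19:3912725-3913024, minus strand): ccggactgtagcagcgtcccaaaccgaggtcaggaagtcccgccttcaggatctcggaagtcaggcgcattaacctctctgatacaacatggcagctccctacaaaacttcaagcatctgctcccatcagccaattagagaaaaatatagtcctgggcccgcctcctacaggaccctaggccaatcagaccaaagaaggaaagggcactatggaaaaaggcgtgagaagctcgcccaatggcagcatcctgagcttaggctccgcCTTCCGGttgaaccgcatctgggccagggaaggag
The Ndufa4 window held no match to any of the motifs. In the Ndufaf4 window the capitals mark the NRF1 motif (GCGC, any base, then TGCGC), which begins at position -113 from the gene start. In the Ndufs7 window they mark the YY1 motif AAGATGGCG, 24 bases after the start, and in the Ndufs8 window the ETS motif CCGGAAG read on the opposite strand, 15 bases after the start. No printed window held a match to more than 1 of the motifs, so none overlapped there.

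The NRF1 motif was found in 9 of the 40 member windows (22.5%) and in 5.19% of the windows of 27025 genes. Its carriers were Ndufa5, Ndufa6, Ndufa8, Ndufa11, Ndufb4, Ndufs5, Ndufs6, Ndufaf4 and Ndufaf5. The YY1 motif stood in 6 member windows (15%, against 1.64% of all windows), those of Ndufa9, Ndufc1, Ndufs4, Ndufs6, Ndufs7 and Ndufaf8. The ETS motif also stood in 6 (15%, against 9.93%), those of Ndufb6, Ndufb7, Ndufs3, Ndufs8, Ndufaf1 and Ndufaf8. The motif TCAAGGTCA of the estrogen-related receptors was in 0 of 40 member windows and in 0.466% of all windows. These matches describe letters in a short window, and binding was not measured.

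Subunit transcripts were far more abundant than those of assembly factors. Levels are compared between genes as CPM (counts scaled by library size and TMM factor) per kb of the principal transcript, averaged over the 8 libraries. On this scale the 38 subunits had a median of 326 CPM per kb and the 8 assembly factors a median of 18.6 CPM per kb. Every assembly factor lay below every subunit except Ndufb4 (23.8 CPM per kb), a membrane arm subunit, and Ndufa4l2 (19.3 CPM per kb), a paralog of Ndufa4. Ndufaf1, a partner of Ecsit and Acad9 in assembly of the membrane arm, was the most abundant assembly factor at 33.1 CPM per kb. Ndufaf6, a matrix protein needed early in assembly, was the least abundant at 13.0 CPM per kb.

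**Figure D1:**
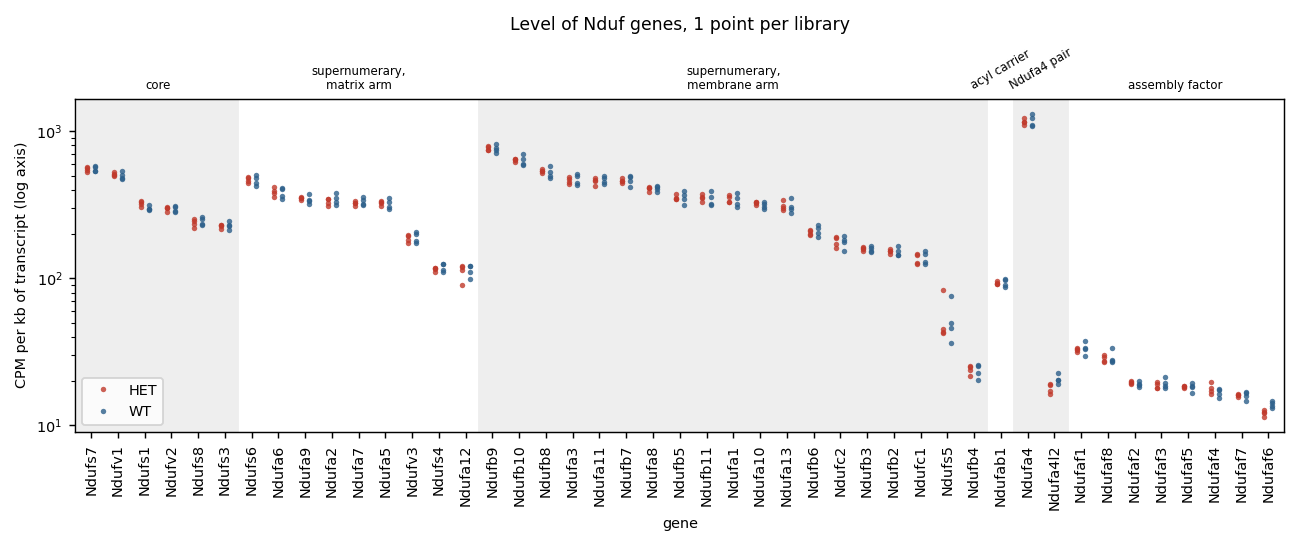
Level of 45 Nduf genes in CPM per kb of principal transcript (log axis), with 1 point per library (HET red, WT blue), genes ordered by role and level. Subunits have a median of 326 CPM per kb and assembly factors a median of 18.6 CPM per kb; the points of both genotypes overlap for most genes.

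Among the subunits, Ndufa4 had the highest level, 1174 CPM per kb with a range of 1093 to 1317 over the libraries. Ndufa4 was first described as a complex I subunit and was later assigned to cytochrome c oxidase. Ndufb9, a membrane arm subunit, came next at 764 CPM per kb (713 to 818), and the ranges of this pair did not overlap. With the union of all annotated exons as the length, Ndufa4 had 519 CPM per kb and Ndufb9 ranked above it at 522 CPM per kb. On that length the lowest assembly factor was Ndufaf2 at 4.40 CPM per kb, and Ndufb2 (12.3), Ndufb4 (12.04), Ndufa4l2 (16.4) and Ndufab1 (19.2) were the subunits below 1 or more assembly factors.

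The 7 nuclear-encoded core subunits had a median of 310 CPM per kb of principal transcript. This was below the medians of the supernumerary subunits of the matrix arm (329 CPM per kb) and the membrane arm (343 CPM per kb). Ndufs7, which carries the last iron-sulfur cluster of the chain, had 553 CPM per kb (525 to 578). Ndufv1, which binds NADH and FMN, had 504 CPM per kb (475 to 535), a range that overlaps that of Ndufs7. Ndufs1, which holds several iron-sulfur clusters, had 310 CPM per kb (290 to 333) and its neighbour in the order, Ndufv2, 297 CPM per kb (281 to 308), again with overlapping ranges. Ndufs8 (241 CPM per kb) and Ndufs3 (228 CPM per kb) were the lowest of the core. These orders changed with the union of exons as length. The median was then 234 CPM per kb for the core (that of Ndufv2), 194 for the membrane arm (Ndufa10) and 126 for the matrix arm (Ndufa6). The lowest of the core were then Ndufs1 (99.4) and Ndufs3 (109.5), with Ndufs8 at 183.8. Gm12251 matches the Ndufs3 transcript at 98.6% identity over 792 bases, and reads that fit both may not have been counted.

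On the length of the principal transcript, supernumerary subunits varied more. The 9 of the matrix arm ran from 112 CPM per kb for Ndufa12 to 464 CPM per kb for Ndufs6, a zinc-binding subunit. The 19 of the membrane arm ran from 23.8 CPM per kb for Ndufb4 to 764 CPM per kb for Ndufb9. Ndufab1, the mitochondrial acyl carrier protein that also serves fatty acid synthesis, had 93.2 CPM per kb. The low value of Ndufb4 is uncertain, because the pseudogene Ndufb4c matches its transcript over 390 bases and reads that fit both may not have been counted.

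The libraries held 32397302 to 41234883 counts. Pkp2 had 88.2 to 105.6 CPM in HET and 148.5 to 169.1 CPM in WT (log2 fold change -0.74, edgeR's adjusted p = 0.00376, from its quasi-likelihood test over all genes), so no library went against its label. All 8 markers of ventricular heart muscle were abundant (6 of 8 higher in HET, median log2 fold change 0.04). Their summed levels were 79055 to 83173 CPM in HET and 74375 to 79745 CPM in WT. Of the atrial markers, Myl7, Sln and Bmp10 had 0 to 4 counts in any library while Nppa had 218 to 461 CPM. Summed fibroblast markers (6 of 6 lower in HET, median log2 fold change -0.06) had 943 to 1179 CPM in HET and 1006 to 1165 CPM in WT. Summed macrophage markers (6 of 6 lower, median -0.14) had 186 to 211 CPM in HET and 192 to 291 CPM in WT, and no gene of any marker list passed the adjusted threshold.

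No complex I gene differed between the genotypes by the test. At an adjusted p of 0.05 edgeR called 0 of the 46 members, against 0.00686% of all genes tested (Pkp2 alone), and DESeq2 called 0 of them among 13 genes. At an unadjusted p under 0.05, 3 members passed by either tool (3 of 46 against 6.38% of all genes). By edgeR these were Ndufs1, higher in HET (1 member against 2.75% of all genes), and Ndufa4l2 and Ndufaf6, lower in HET (2 members against 3.63%). The groups did not overlap for 2 members against 3.78% of all genes, with 0 higher (background 1.70%) and 2 lower (background 2.08%). These counts are close to the background, so they give no result about complex I as a set.

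The differences were small and of both signs. The log2 fold change (HET over WT) was above 0 for 24 of 46 members, against 48.5% of all genes. Its median was 0.005 over the subunits (20 of 38 above 0) and -0.01 over the assembly factors (4 of 8 above 0), beside -0.0038 over all genes. For 45 members the 95% interval lay within a 1.5-fold change in either direction, and for 43 within a 1.2-fold change. The exceptions to the narrower bound were Ndufa4l2, Ndufaf6 and Ndufs5, and Ndufs5 was the exception to the wider one. In bulk tissue fewer cells of a type and less RNA per cell cannot be told apart, and this holds for every level given here.

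The split of signs moved with the scaling and with single libraries. Scaled by library size alone, 5 of 46 members were above 0, with 32.8% of all genes and a median of -0.05 over all genes. With the shared digits of the sample titles as a covariate, 43 of 46 were above 0, with 49.98% of all genes. WT replicate 2 alone holds its digits, so it added nothing to the genotype difference in that fit. HET replicates 1, 3 and 4 share digits with WT replicate 1, and HET replicate 2 with WT replicates 3 and 4. The subunit median was -0.04 in the first of these fits (4 of 38 above 0) and 0.06 in the second (37 of 38). Without WT replicate 3 the count of members above 0 was 9, without WT replicate 1 it was 13, without HET replicate 2 it was 15, and without WT replicate 2 it was 37. No member passed the adjusted threshold in any of these fits. At an unadjusted p under 0.05 by edgeR, 6 members passed with the title digits as covariate and 1 to 3 in the others. The share over all genes was not counted for these fits.

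**Figure D2:**
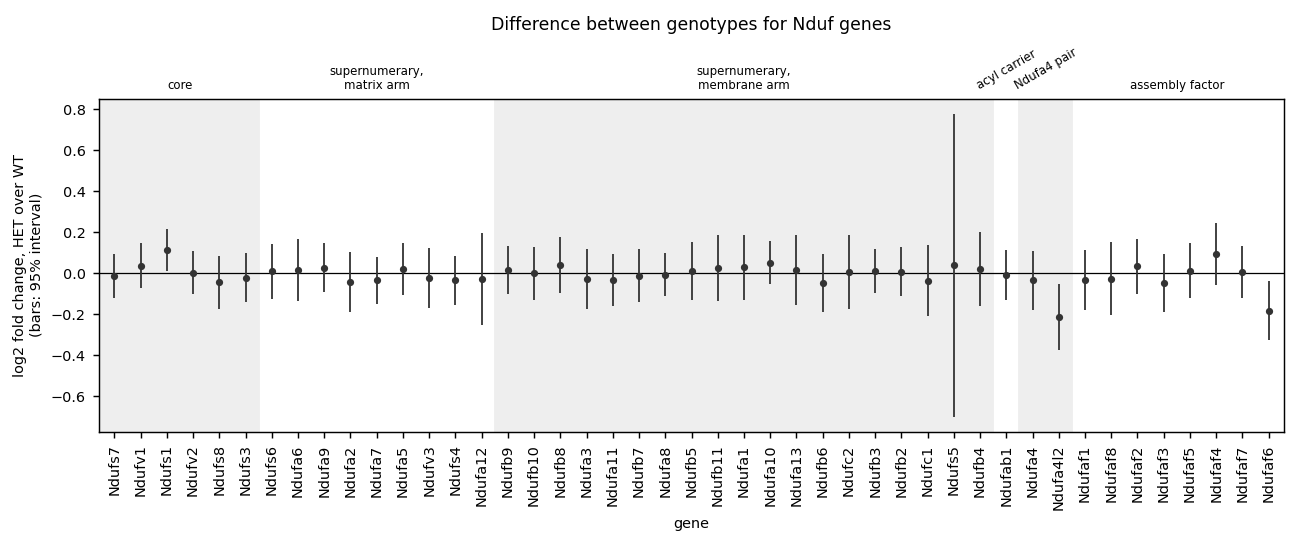
Log2 fold change (HET over WT) of 45 Nduf genes, with 95% intervals from the edgeR fit, ordered by role and level as in the plot of levels. The intervals of Ndufs1, Ndufa4l2 and Ndufaf6 lie off 0 before adjustment, and that of Ndufs5 runs from -0.70 to 0.78.

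In the core, 4 of 7 genes were above 0 and the median log2 fold change was 0.0035. Ndufs1 (ENSMUSG00000025968, chromosome 1, 63143596 to 63176833, minus strand) had 826, 796, 860 and 862 CPM in HET replicates 1 to 4 and 761, 813, 763 and 752 CPM in WT. Of the HET libraries 3 lay above all WT libraries, and HET replicate 2 lay below WT replicate 2. Mean levels were 836 ± 31.6 CPM in HET and 772 ± 27.5 CPM in WT (SD, n = 4 each). The log2 fold change was 0.11 (SE 0.046, interval 0.01 to 0.22) with an adjusted p of 0.770 in edgeR's test.

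The other core genes described here showed smaller values. Ndufv1 (chromosome 19, 4007384 to 4012806, minus strand) had 829, 884, 849 and 831 CPM in HET and 789, 888, 799 and 833 CPM in WT. The groups overlapped, and the fitted difference was 0.04 on the log2 scale (interval -0.07 to 0.15, adjusted p = 0.897 by edgeR) that was -0.0059 when scaled by library size alone.

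Ndufs8 (chromosome 19, 3908863 to 3912774, minus strand), an iron-sulfur subunit whose promoter window is printed above, had 248, 240, 216 and 231 CPM in HET. Its WT libraries had 231, 257, 228 and 248 CPM, and only HET replicate 3 lay below them all. Its log2 fold change was -0.04 (interval -0.17 to 0.08, adjusted p = 0.888 by edgeR), and with the title digits as covariate it was 0.0073. Ndufs7 (-0.01), Ndufs3 (-0.02) and Ndufv2 (0.0035) were close to 0 on the log2 scale. Summed over the 7 core genes, HET libraries had 4115 to 4241 CPM and WT libraries 3929 to 4346 CPM, so all HET sums lay within the range of WT.

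Supernumerary subunits of the matrix arm were above 0 in 4 of 9 cases, with a median log2 fold change of -0.02 and a range of -0.04 to 0.03. Their sums were 2128 to 2339 CPM in HET and 2103 to 2450 CPM in WT. The lowest value was that of Ndufa2 (-0.04) and the highest that of Ndufa9 (0.03), which sits near the ubiquinone pocket. Ndufs4, whose loss in mice gives a Leigh-like encephalopathy, had 196 ± 6.16 CPM in HET and 200.3 ± 12.6 CPM in WT (SD, n = 4 each), with overlapping groups.

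Membrane arm subunits were above 0 in 12 of 19 cases, with a median log2 fold change of 0.0088. Ndufa10 (chromosome 1, 92439010 to 92473860, minus strand), a subunit with a nucleoside kinase fold, had the highest value of the group. It had 661, 665, 635 and 664 CPM in HET and 618, 671, 596 and 647 CPM in WT. All HET libraries lay within the WT range, and the log2 fold change was 0.05 (interval -0.05 to 0.16, adjusted p = 0.83 by edgeR).

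The lowest value of the membrane arm was that of Ndufb6 (chromosome 4, 40270591 to 40279421, minus strand). It had 139, 141, 129 and 133 CPM in HET and 134, 153, 127 and 146 CPM in WT, again with every HET library inside the WT range. Its log2 fold change was -0.05 (interval -0.19 to 0.09, adjusted p = 0.886 by edgeR) and 0.02 with the title digits as covariate. Ndufb6 shares 39% of its exon bases with Smim27 on the opposite strand, and the strand setting of the counting is not known. In all, 15 members share exon bases with another annotated gene. Ndufa1 and Ndufb11, the X-linked members, had log2 fold changes of 0.03 each.

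Ndufa4 and its paralog Ndufa4l2 differed in level and in how their libraries fell. Ndufa4 (chromosome 6, 11900292 to 11907497, minus strand) had 709.7, 746, 674 and 703 CPM in HET and 667, 803, 674 and 754 CPM in WT. Its groups overlapped, and their means were 708 ± 29.5 CPM (HET) and 725 ± 65.5 CPM (WT; SD, n = 4 each). Its log2 fold change was -0.03 (interval -0.18 to 0.11, adjusted p = 0.928 by edgeR), and it was 0.02 without WT replicate 2 and 0.06 with the title digits as covariate.

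Ndufa4l2 is known as a target of hypoxia-inducible factor that lowers complex I activity, and as a transcript of pericytes. Ndufa4l2 (ENSMUSG00000040280, chromosome 10, 127514967 to 127517154, plus strand) had 17.7, 15.4, 15.9 and 17.7 CPM in HET and 19.2, 19.0, 18.0 and 21.1 CPM in WT. Every HET library lay below every WT library. Mean levels were 16.7 ± 1.22 CPM in HET and 19.3 ± 1.3 CPM in WT (SD, n = 4 each), which puts HET at 86.3% of WT. The log2 fold change was -0.21 (SE 0.072, interval -0.37 to -0.05), and the difference did not pass the test with an adjusted p of 0.770 in edgeR.

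Markers of pericytes and smooth muscle were read beside Ndufa4l2. The 7 markers, none of them at 0 in any library, summed to 1291 to 1407 CPM in HET and 1258 to 1427 CPM in WT, and 4 of 7 were above 0 (median log2 fold change 0.06). Of the pericyte genes, Kcnj8 had a log2 fold change of -0.23, Rgs5 -0.07, the receptor gene Pdgfrb -0.13 and Abcc9, the channel partner of Kcnj8, 0.06. The smooth muscle genes Acta2 (0.07), Myh11 (0.14) and Tagln (0.12) were above 0. The smallest adjusted p of the list was 0.770, for Kcnj8, by edgeR. Their part in the Ndufa4l2 values was not tested. Ndufa4l2 also shares 32 exon bases, 2.92% of its exons, with Shmt2 on the opposite strand.

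**Figure D3:**
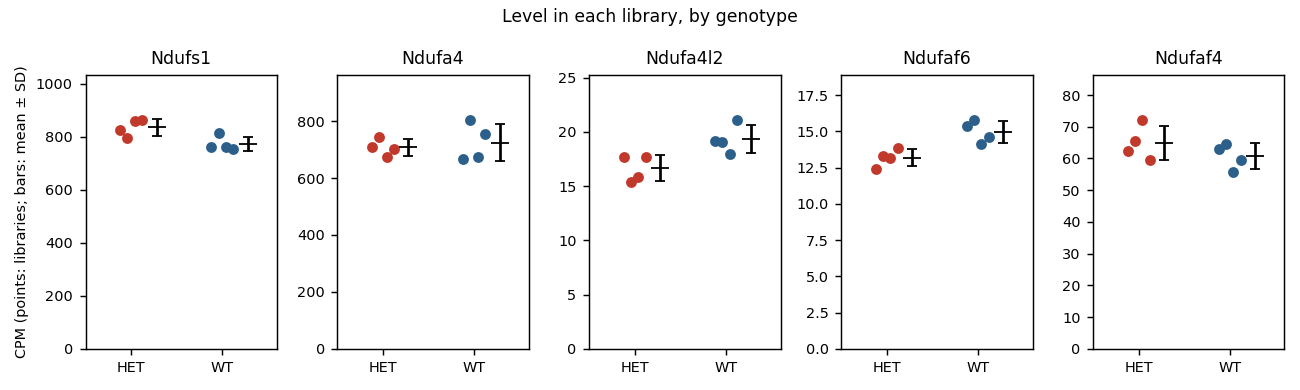
CPM of 5 Nduf genes in each library (points) with mean and SD (n = 4 per genotype), each axis starting at 0. The HET and WT points do not overlap for Ndufa4l2 and Ndufaf6 and overlap for Ndufs1, Ndufa4 and Ndufaf4; no gene passed the adjusted threshold.

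The assembly factors were above 0 in 4 of 8 cases, and their sums were 232 to 243 CPM in HET and 224 to 247 CPM in WT. Ndufaf6 (ENSMUSG00000050323, chromosome 4, 11051045 to 11076205, minus strand) had 12.4, 13.3, 13.2 and 13.8 CPM in HET and 15.4, 15.8, 14.1 and 14.6 CPM in WT. Every HET library lay below every WT library, though HET replicate 4 and WT replicate 3 lay close together. Mean levels were 13.2 ± 0.581 CPM in HET and 14.98 ± 0.746 CPM in WT (SD, n = 4 each), and HET had 88.0% of the WT level. This gave a log2 fold change of -0.18 (SE 0.065, interval -0.33 to -0.04) with an adjusted p of 0.770 by edgeR, so it did not pass the test.

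Ndufaf4 (chromosome 4, 24898083 to 24905001, plus strand), which acts with Ndufaf3 on the module that binds ubiquinone, had the largest positive value among the assembly factors. It had 62.3, 65.5, 72.0 and 59.4 CPM in HET and 63.1, 64.7, 55.7 and 59.6 CPM in WT. The groups overlapped, and HET replicate 3 stood highest. Its log2 fold change was 0.09 (interval -0.06 to 0.25, adjusted p = 0.792 by edgeR), and without HET replicate 3 it was 0.04. Ndufaf3 itself was at -0.05.

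Ndufaf1 (chromosome 2, 119655446 to 119662827, minus strand) had 48.9, 47.2, 45.8 and 48.2 CPM in HET and 47.8, 54.3, 43.3 and 49.0 CPM in WT. All HET libraries lay within the WT range, and the fitted difference was -0.03 on the log2 scale (interval -0.18 to 0.11, adjusted p = 0.931 by edgeR). It was 0.03 without WT replicate 2 and 0.01 with the title digits as covariate. The other assembly factors were Ndufaf2, which acts late in assembly (0.03), Ndufaf5, a hydroxylase of Ndufs7 (0.01), its partner Ndufaf8 (-0.03), and Ndufaf7, a protein methyltransferase (0.0059), all on the log2 scale.

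Ndufs5 and Ndufa12 were singled out after their values were seen, because their libraries fell into separate levels that did not follow genotype. Ndufs5 (chromosome 4, 123712710 to 123718202, minus strand), a membrane arm subunit, had 23.8, 43.5, 22.4 and 22.7 CPM in HET and 39.8, 26.2, 19.1 and 24.1 CPM in WT. HET replicate 2 and WT replicate 1 stood above the rest, and the coefficient of variation of 32.1% was the highest of the members. The processed pseudogene BC002163 (chromosome 16, 42955631 to 42955949, plus strand) matches the Ndufs5 transcript at 99.4% identity over 319 bases.

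Counts assigned to that copy ran the opposite way. BC002163 had 2.18 CPM in HET replicate 2 and 2.33 CPM in WT replicate 1, and 37.1 to 44.6 CPM in the other libraries. The sum of both genes was 45.7 and 42.1 CPM in those libraries and 56.2 to 70.8 CPM in the others. The log2 fold change of Ndufs5 was 0.04 (interval -0.70 to 0.78, adjusted p = 0.987 by edgeR), and with the copy added it was 0.05 (interval -0.39 to 0.49, adjusted p = 0.969). Without HET replicate 2 it was -0.25 and without WT replicate 1 it was 0.28.

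Ndufa12 (chromosome 10, 94198720 to 94221443, plus strand), a matrix arm subunit, was also low where its copy was high, here in HET replicate 3 and WT replicate 1. It had 126, 134, 99.96 and 132 CPM in HET and 109, 134, 123 and 136 CPM in WT, and those libraries were its lowest. Its copy Gm15920 (chromosome 5, 130188395 to 130188796, plus strand, 99.5% identity over 402 bases) had 26.9 CPM and 28.1 CPM in those libraries and 1.15 to 1.6 CPM in the others. The sum of both was 125 to 137 CPM in all libraries, and its coefficient of variation was 3.74%, against 10.6% for Ndufa12 alone. For Ndufa12 the log2 fold change was -0.03 (interval -0.25 to 0.20, adjusted p = 0.966 by edgeR) and kept that value with the copy added (interval -0.14 to 0.08). Near-identical copies of 5 further members (Ndufab1, Ndufb4, Ndufb11, Ndufs3 and Ndufs6) had at most 2.36 CPM in any library.

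**Figure D4:**
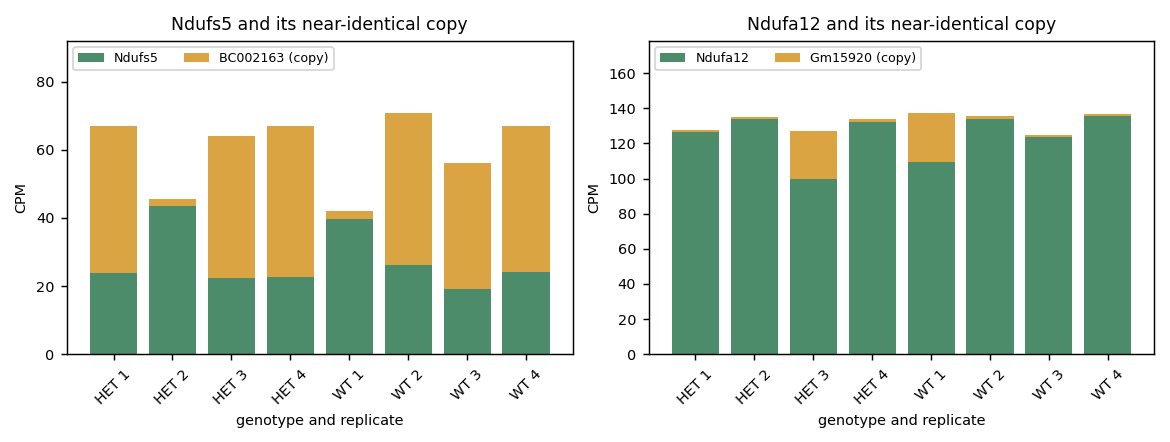
CPM of Ndufs5 and Ndufa12 (green) and of their near-identical copies BC002163 and Gm15920 (yellow), stacked, in each library. BC002163 is near 2 CPM in HET replicate 2 and WT replicate 1, where Ndufs5 is highest, and Gm15920 is above 26 CPM in HET replicate 3 and WT replicate 1, where Ndufa12 is lowest.

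Other genes of the complex were read from lists of mitochondrially encoded subunits, further assembly factors and regulators. Of the 7 mitochondrially encoded subunits 5 were tested, since mt-Nd3 and mt-Nd4l had at most 4 counts, and 0 passed the adjusted threshold. In contrast, mt-Nd1, mt-Nd2, mt-Nd4 and mt-Nd5 had 519219 to 998531 counts. The cause of the low counts of mt-Nd3 and mt-Nd4l was not tested, and they may not reflect expression. The tested subunits were above 0 in 4 of 5 cases with a median log2 fold change of 0.07. The smallest p was that of mt-Nd2 (0.14, SE 0.084, adjusted p = 0.773 by edgeR). Their summed level was 72586 to 81498 CPM in HET and 58898 to 80557 CPM in WT, lowest in WT replicate 3.

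All 12 tested assembly factors without the Nduf prefix were above 0, against 48.5% of all genes, and 0 of 12 passed the adjusted threshold. Their median log2 fold change was 0.04, with a range of 0.01 to 0.16. The smallest p belonged to Timmdc1, a membrane arm assembly factor, with 48.7 ± 3.09 CPM in HET and 43.6 ± 2.89 CPM in WT (SD, n = 4 each). Its log2 fold change was 0.16 (SE 0.063, adjusted p = 0.770 by edgeR), with overlapping groups. Of 13 regulators of mitochondrial genes 12 were above 0 (median 0.06), against 48.5% of all genes, and 0 passed the threshold. These list counts were taken under TMM scaling only. By library size alone the median over all genes was -0.05, and the lists were not counted there. Tfam, which packs mitochondrial DNA, had the smallest p of that list with 44.1 ± 1.86 CPM in HET and 41.2 ± 2.52 CPM in WT (log2 fold change 0.10, adjusted p = 0.770 by edgeR).

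Most complex I subunits were high in the same libraries and low in the same libraries, and these did not follow genotype. WT replicate 2 had the highest level of 29 of the 38 subunits, against 15.6% of all genes tested. WT replicate 3 had the lowest level of 18 subunits, against 14.1% of all genes, and HET replicate 3 of 11. In WT replicate 2 the level was above the mean of the gene for 37 of 38 subunits, and in WT replicate 3 for 1 of 38. These last counts and that of HET replicate 3 were not taken over all genes. The summed subunit level was 13188 CPM in WT replicate 2 and 11512 CPM in WT replicate 3, with the HET libraries between them at 11952 to 12691 CPM.

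**Figure D5:**
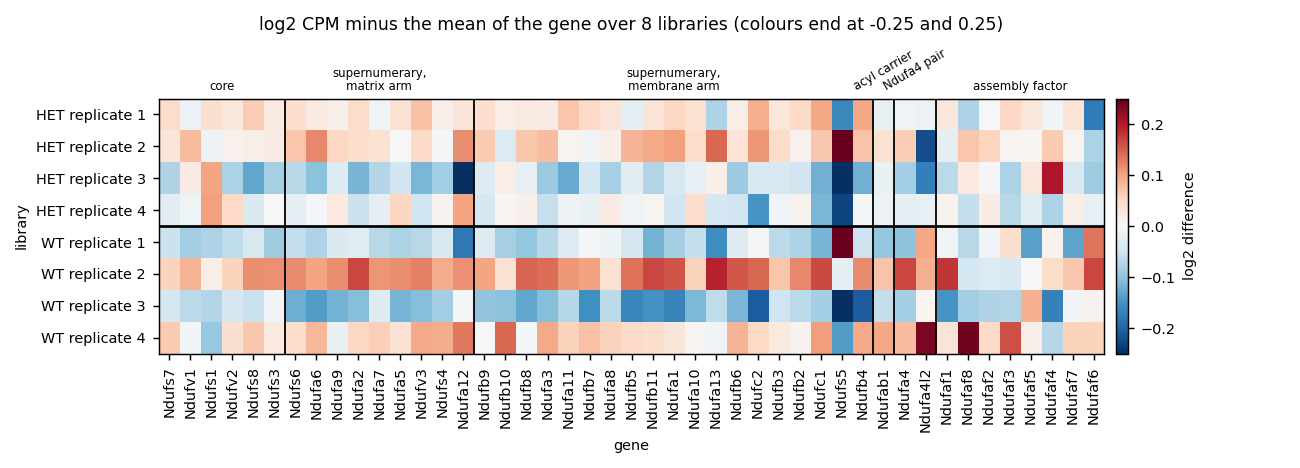
Log2 CPM of 45 Nduf genes minus the mean of the gene over the 8 libraries, by library (rows) and gene (columns, ordered by role), with colours that end at -0.25 and 0.25. WT replicate 2 is above the mean for 37 of 38 subunits and WT replicate 3 for 1 of 38, which was not counted over all genes.

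WT libraries thus held both extremes of the subunits. The SD over 4 libraries was smaller in HET than in WT for 35 of 38 subunits, against 60.1% of all genes. Without WT replicate 2 this held for 28 subunits and 55.3% of all genes. Without WT replicates 2 and 3 it held for 28 subunits and 43.2% of all genes. There the WT SD came from only 2 libraries and the HET SD from 4. The difference in spread was not tested, and subunits that move together are not separate observations. Scaled by library size alone, WT replicate 2 was highest for 24 subunits, against 12.7% of all genes. WT replicate 3 was then lowest for 5 subunits, against 6.65% of all genes. The low position of WT replicate 3 thus moved with the scaling, for the subunits and over all genes.

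Other measures moved with these libraries. WT replicate 3 had 14.7% of its counts on mitochondrially encoded genes against 17.1% to 19.1% in the others, and the highest summed macrophage markers, 291 CPM. Summed red cell markers were lowest in WT replicate 2 (176 CPM) and highest in WT replicate 3 (417 CPM), with 254 to 330 CPM in the others. WT replicate 2 is the only library with its title digits. The part of these in the subunit levels was not tested. The 8 assembly factors varied by a median coefficient of variation of 6.23% (2.89% for Ndufaf2 to 8.15% for Ndufaf8), and the 38 subunits by 5.50% (3.41% for Ndufb3 to 32.1% for Ndufs5).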

How the data were processed

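Poly(A)-selected RNA of 8 ventricle samples (Trizol, stranded TruSeq kit, per the labels' protocols) was measured as raw read counts, deposited as whole numbers for each gene. STAR 2.4.2a, HTSeq 0.6.1 and the build GRCm38/mm10 are named in the submitters' processing notes. The sources used here do not give the annotation release or strand setting, so genes that overlap or have near-identical copies are uncertain. Groups follow the genotype label, and replicates were numbered in accession order and pair nothing.

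Counts were filtered (filterByExpr), scaled by TMM and compared with edgeR 4.0.16 in R 4.3.3 (robust quasi-likelihood test, no covariate, Benjamini-Hochberg adjustment over 14567 genes, threshold 0.05). SEs come from the F statistic and intervals are 95%. The script was tested on simulated data. Positions, gene types and principal transcripts came from GENCODE M21 for GRCm38. Copies were transcripts of another gene with at least 95% identity over 300 bases; Tssk6, which meets this only because its exons overlap those of Ndufa13 on the opposite strand (375 bases), was not counted. Alternatives were RLE and library-size scaling, no filter, DESeq2 1.42.0, the shared title digits as covariate and leaving out each library; added after seeing the data were counts with the copy, exon-union lengths, and scalings and libraries left out for the library patterns.

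Members, lists and alternatives were chosen with earlier results of these data known. Values per library were given for Ndufa4, Ndufs1, Ndufv1 and Ndufa4l2, members past the threshold or whose groups do not overlap, the 3 higher and 3 lower subunits and the 1 higher and 1 lower assembly factor of smallest p, and the highest and lowest per length. A member counted above is not reported here by itself. Marker lists also covered endothelial cells (1054 ± 51.1 CPM summed in HET, 1064 ± 109 CPM in WT) and lymphocytes (1.6 ± 0.247 and 2.07 ± 0.466 CPM). Red cells (301 ± 34.5 and 291 ± 98.5 CPM) and adipocytes (389 ± 35.5 and 425 ± 67.7 CPM, mostly Fabp4) were covered too. Of the adipocyte genes 3 of 4 tested were higher in HET, with a median log2 fold change of 1.59. Apart from Fabp4, these markers had at most 158 counts in any library. The smallest adjusted p of the adipocyte list was 0.770 by edgeR, for Cidec (2 to 45 counts).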

Additional observations from a re-analysis of the deposited data

Results flagged for a closer look

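A library stood apart from the other 3 of its genotype, by the gap at the end of the range (Dixon's test at 95%), in 6 of the 92 gene and genotype groups checked. Chance flags about 1 in 20 groups. In HET replicate 3 Ndufa10 was low (634.8 CPM, others 661.3 to 665.0), and so was Ndufa8, a membrane arm subunit (330.7 CPM, others 354.3 to 358.5). HET replicate 2 was high for Ndufs5 (43.5 CPM, others 22.4 to 23.8), where its near-identical copy was low. That library was also high for Ndufb5 of the membrane arm (405.9 CPM, others 376.0 to 380.1) and for Ndufab1 (135.5 CPM, others 130.1 to 130.6). In WT replicate 4 the assembly factor Ndufaf8 was high (26.4 CPM, others 21.1 to 21.7).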

How the results depend on the processing

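No complex I member passed the adjusted threshold under any of the 13 alternatives, where the smallest adjusted p of a member was 0.563 to 0.994. The log2 fold change stayed below 0 for Ndufa4l2 (-0.25 to -0.17) and Ndufaf6 (-0.23 to -0.16) and above 0 for Ndufs1 (0.07 to 0.14). For Ndufa4l2 and Ndufaf6 every HET library lay below every WT library. Leaving out a single library could therefore hardly turn their sign. Over all genes, 2 were called with no filter, 13 by DESeq2, and 1 to 3 with a library left out (3 without HET replicate 3). The median of the assembly factors was -0.0528 with library size alone. With the title digits as covariate, log2 fold changes turned positive for Ndufa12 (0.0927), Ndufa4 (0.0616), Ndufaf1 (0.0122), Ndufb6 (0.0173) and Ndufs8 (0.0073). With library size alone that of Ndufv1 was -0.0059. Leaving out single libraries moved Ndufa12 between -0.086 and 0.0611, Ndufa4 between -0.0682 and 0.0203, Ndufaf1 between -0.0866 and 0.0253, and Ndufs5 between -0.25 and 0.28. The cause of these sign changes was not tested. The covariate fit, like the fit without WT replicate 2, took no genotype difference from that library, which alone holds its title digits. Where 1 library was left out, 3 remained in its group. With the union of exons as length, levels were 16.4 CPM per kb for Ndufa4l2 and 11.4 CPM per kb for Ndufaf6. No paired analysis was possible because the replicate numbers follow accession order and the labels name no litter, batch or day. With 4 libraries a group, small changes could not be detected. The intervals are not adjusted for the number of genes tested, so they understate the change needed to pass the threshold. Those of Ndufs1, Ndufa4l2 and Ndufaf6 lay off 0 at an adjusted p of 0.770 by edgeR.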
